A study of Mus musculus with 23 samples.

Results

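Transferases that attach glutathione (Gst and Mgst), glucuronic acid (Ugt) or sulfate (Sult) to drugs, plant compounds and the body's own waste products were examined in the small intestine of mice fed quercetin. The genes were taken by name: a scanner gene name of Gst with a class letter, Mgst, Ugt or Sult, followed by a number, with Ugt1a6a and Ugt1a6b left out. This gave 53 genes on 80 probes, out of 34741 gene names on the array: 20 Gst, 3 Mgst, 13 Ugt and 17 Sult genes. Of these, 37 passed the filter on dim probes, as did 21477 genes of the whole array.

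RNA came from small intestinal scrapings of 23 adult male C57BL/6J mice, an inbred strain, and each mouse had 1 Agilent array with 2 colours. The HF-Q group (11 mice) ate a high-fat diet holding 0.33% quercetin by weight for 12 weeks, and the HF group (12 mice) ate that diet with no quercetin for the same time. The study left out 1 further quercetin-fed mouse because of an abscess. Both groups had first spent 3 weeks on normal-fat food, and both were fasted for 2 to 4 hours before dissection. Cy5 carried the RNA of a single mouse and Cy3 an equal mixture of the RNA of all mice, so a value below is a log2 ratio of that mouse over the pool, with 0 meaning equal to the pool.

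Quercetin is a plant flavonol that enterocytes conjugate with glucuronic acid and sulfate as they absorb it. UDP-glucuronosyltransferases work inside the endoplasmic reticulum and sulfotransferases in the cytosol, and both make their products easier to export. Cytosolic Gst enzymes and the membrane-bound Mgst enzymes join glutathione to reactive molecules, and the transcription factor NRF2 is known to raise several Gst genes through antioxidant response elements in their promoters.

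The labelled tissue was checked against marker genes. All 12 enterocyte markers were well above background on all 23 arrays, as were 12 of 12 proximal and 12 of 12 distal small intestine markers. A protocol label names liver as the source of the RNA, against the other labels. Of 10 hepatocyte markers, 5 were well above background on all arrays, and Ahsg and Mup3, secreted liver proteins, were so on none; albumin (Alb) was so on 5 of 11 HF-Q arrays and 6 of 12 HF arrays. Between 48.6% and 56.6% of probes were well above background on an array. In bulk tissue, fewer cells of a type and less RNA per cell cannot be told apart. The diets were also compared in other tissue markers, and their ranges overlapped. The summed level of 12 pancreatic acinar markers (mean log2 ratio) ran between -3.53 and 2.14 in HF-Q mice and between -3.42 and 1.76 in HF mice, with 12 of 12 markers lower on average in HF-Q. For smooth muscle, 9 of 9 measured markers were lower in HF-Q, with scores of -1.21 to 0.74 in HF-Q mice and -0.60 to 1.04 in HF mice. No marker of these 2 lists reached an unadjusted p under 0.05. Markers of a list come from the same mice, so these counts are not independent observations. Of 7 T cell markers, 4 were higher in HF-Q at an unadjusted p under 0.05 (Gzmb, Gzma, Cd8a and Cd3g), against 2.1% of all genes. None passed the adjusted threshold of 0.05. The other markers were near 0: Cd3e at 0.031, Cd4 at -0.019 and Cd2 at -0.025 (log2 fold change, HF-Q minus HF). The T cell score was -0.13 to 0.43 in HF-Q mice and -0.35 to 0.19 in HF mice. Of 12 enterocyte markers, 9 were lower in HF-Q, with Fabp2 (-0.221 ± 0.084) at an unadjusted p under 0.05. Distal markers were 7 higher and 5 lower. At that threshold Slc51b (0.309 ± 0.121) was higher, and Cubn (-0.488 ± 0.196) and Fgf15 (-0.771 ± 0.355) were lower. Of all genes, 2.1% were higher and 2.42% lower. Proximal markers were 2 higher and 10 lower, none at that threshold. No marker of these lists passed the adjusted threshold. The part of these tissue markers in the transferase values was not tested beyond the fits with marker scores described after the correlations.

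Nearly all glutathione transferases and few of the sulfate transferases gave signal in the gut on every array, with the glucuronosyltransferases near the share of all genes. The scanner software's mark for Cy5 well above background was met on all 23 arrays by 18 of 20 Gst genes, 3 of 3 Mgst genes, 8 of 13 Ugt genes and 5 of 17 Sult genes, against 52.9% of all gene names. The Sult genes on all arrays were Sult1a1, which sulfates phenols, Sult1b1, Sult1c2, Sult1d1, and Sult2b1, which sulfates cholesterol and related sterols. Sult4a1, best known from brain, was well above background on 9 of 11 HF-Q arrays and 10 of 12 HF arrays with 1 of its 3 probes. Its other probes were so on 1 array and on 0. Most of the Sult2a genes, which sulfate bile acids and steroids in liver, were dark. Sult2a1, Sult2a2, Sult2a3 and Sult2a4 were well above background on no array, Sult2a6 on 1 and Sult2a7 on 2. Sult1c1, Sult1e1 (the oestrogen sulfotransferase), Sult3a1 and Sult6b1 were also well above background on no array, and Sult5a1 was so on 3.

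Among Ugt genes, Ugt1a10, Ugt2a3, Ugt2b5, Ugt2b34, Ugt2b35, Ugt2b36, Ugt2b37 and Ugt2b38 were well above background on every array. Ugt3a1 was so on 10 of 11 HF-Q arrays and 9 of 12 HF arrays. Ugt2a1, an olfactory enzyme, was so on 6 arrays and Ugt3a2 on 2. Ugt2b1, and Ugt8a, which makes the galactosylceramide of myelin, were so on none. Of the Gst genes, Gsto2 was well above background on 10 of 11 HF-Q and 11 of 12 HF arrays, and Gstt4 on none. No probe had the scanner name Gsta1. No gene passed the filter through 1 diet alone.

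**Figure D1:**
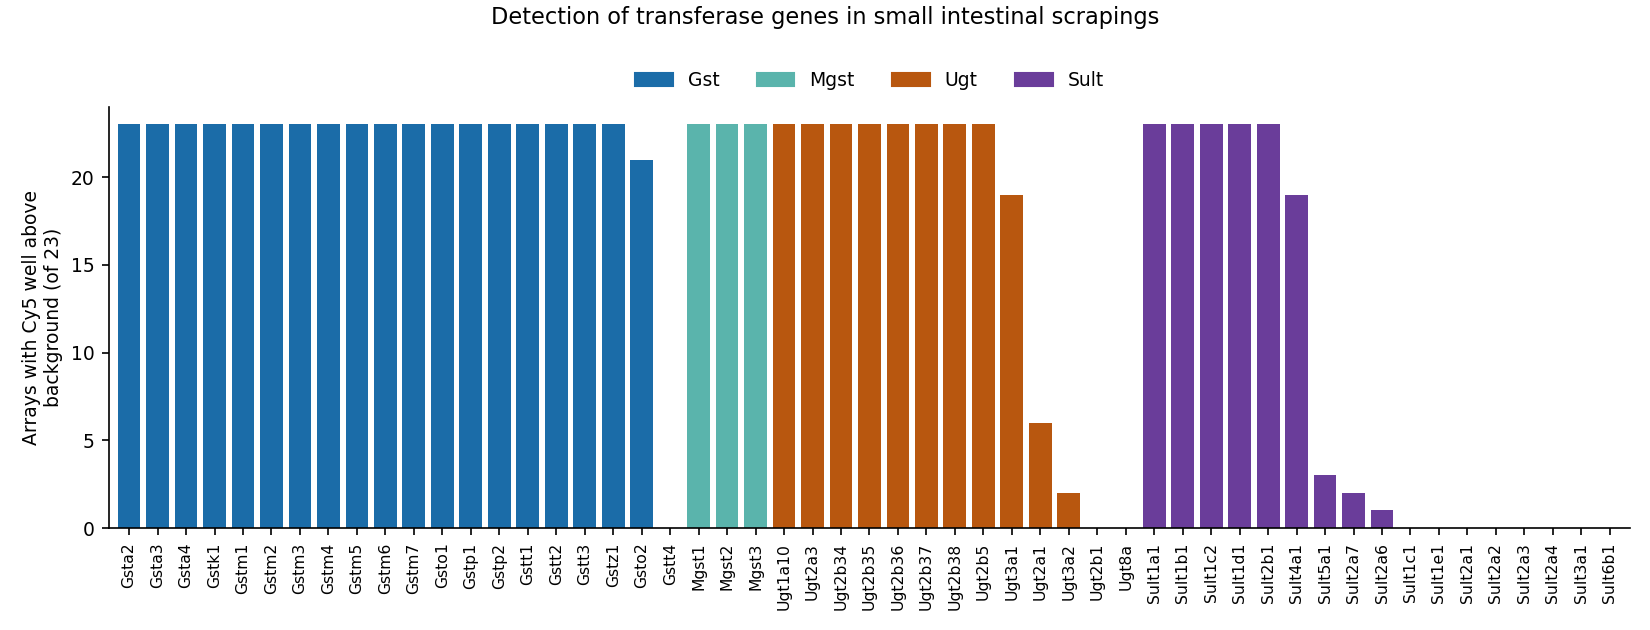
Number of arrays, of 23, on which the best probe of each of the 53 transferase genes was well above background in Cy5 (bars, coloured by family). All Gst and Mgst genes reach 23 except Gsto2 (21) and Gstt4 (0), while 8 of the 17 Sult genes stand at 0.

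Some probes read more than 1 gene. By the transcript accessions in the scanner files, 10 of the 80 probes match transcripts of several genes, 2 of them among the probes used here: the Ugt2b36 probe also matches Ugt2b37, and the Ugt1a10 probe also matches Ugt1a9. A second probe of Gstp1 also matches Gstp2. Among probes of different genes that passed the filter, the closest pairs were Gstp1 with the second Gstp2 probe (30 of 35 aligned bases identical) and Ugt2b5 with Ugt2b37 (46 of 55). Values of these genes may therefore hold signal of their relatives. The 30 best matching bases of both pairs are given to show how near these probes are, with the differing bases in capitals. Probe positions are those of the scanner files on build mm9, minus strand: chr5:87554155-87554214 for Ugt2b5, chr5:87669707-87669766 for Ugt2b37, chr19:4035908-4036723 for Gstp1 and chr19:4040983-4041042 for Gstp2. Exon and UTR positions were not analysed here.
Ugt2b5 probe: aactttcagcctcattctTatttatgaAcc
Ugt2b37 probe: aactttcagcctcattctAatttatgaGcc
Gstp1 probe: cgcggcaaatatgTcaccCtCatctacaCC
Gstp2 second probe: cgcggcaaatatgGcaccAtGatctacaGA

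No transferase differed between the diets beyond the adjusted threshold, and the largest differences were those of mu-class Gst genes. HF-Q was compared with HF by limma over all 23 arrays, with Benjamini-Hochberg adjustment over all 21477 genes. No transferase passed an adjusted p of 0.05, and neither did any gene of the array (0%); the smallest adjusted p was 0.951. At an unadjusted p under 0.05, 4 of the 37 measured transferases were higher in HF-Q (Gstm4, Gstm1, Gstp1 and Gstp2) and 0 were lower, against 2.1% of all genes higher and 2.42% lower (4.53% in either direction). That count was 2 without HF-Q replicate 7, without HF replicate 7 or without HF replicate 10. The median log2 fold change of the 37 genes was 0.031, with 23 higher and 14 lower, against a median of -0.0038 over all genes, of which 48.1% were higher. The 95% interval lay within 1.5-fold either way for 33 of the 37, against 97.1% of all genes. The 4 exceptions were Gstm1, Gstm4, Ugt2b5 and Ugt2b38. By family, 15 of 19 Gst genes were higher in HF-Q (median 0.054), 2 of 3 Mgst genes (0.072), 4 of 9 Ugt genes (-0.0081) and 2 of 6 Sult genes (-0.0054).

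**Figure D2:**
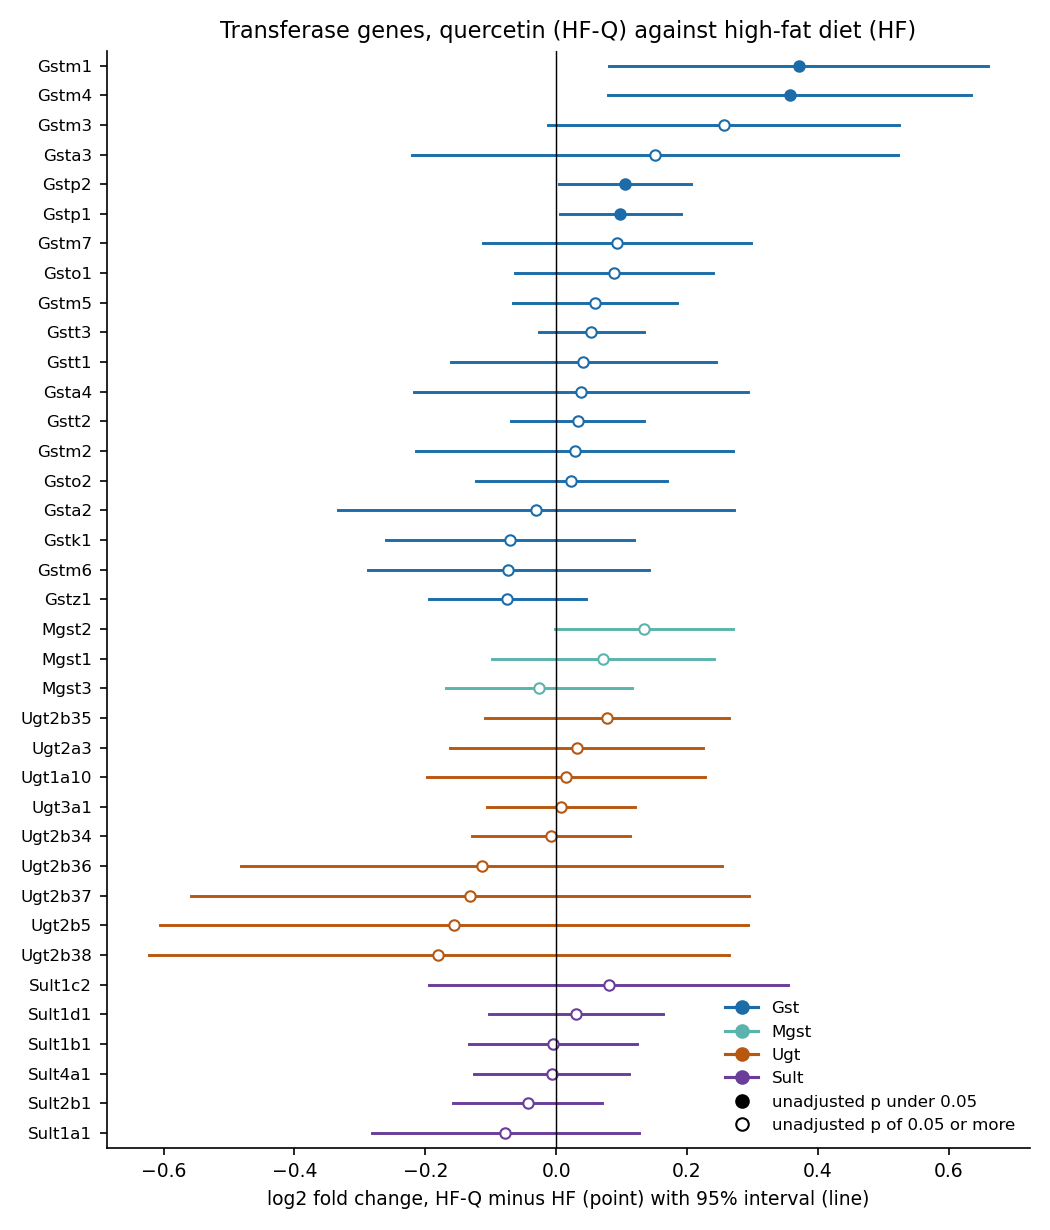
Log2 fold change of the 37 measured transferase genes, HF-Q minus HF, with its 95% interval, ordered within each family. Filled points mark the 4 genes at an unadjusted p under 0.05; no gene passed the adjusted threshold, and the widest intervals belong to Ugt2b5, Ugt2b37 and Ugt2b38.

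The mu-class genes Gstm1, Gstm3 and Gstm4 carried the largest differences of all measured transferases. These cytosolic enzymes conjugate electrophiles such as epoxides, and their genes form a cluster on mouse chromosome 3. Gstm1 had values of -0.29, 0.05 and 0.95 in HF-Q mice (lowest, median and highest), against -0.67, -0.22 and 0.36 in HF mice. The groups overlapped, although the HF median was exceeded in 10 of 11 HF-Q mice. The log2 fold change was 0.37 ± 0.14 (SE; 1.29-fold, unadjusted p = 0.0142).

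Gstm4 had values of -0.27, -0.045 and 0.61 in HF-Q mice, against -0.71, -0.41 and 0.545 in HF mice. Every HF-Q mouse (11 of 11) exceeded the median HF mouse, although a single HF mouse (0.55, HF replicate 3) lay near the top of the HF-Q range. The log2 fold change was 0.36 ± 0.13 (1.28-fold, unadjusted p = 0.0136).

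Gstm3 had values of -0.22, -0.075 and 0.725 in HF-Q mice, against -0.525, -0.23 and 0.40 in HF mice. Its difference of 0.26 ± 0.13 missed the unadjusted threshold (p = 0.061) even though 11 of 11 HF-Q values exceeded the median of HF. The neighbouring Gstm2 differed by 0.029 ± 0.118 (p = 0.81), and Gstm5, Gstm6 and Gstm7 by 0.059, -0.073 and 0.093.

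The differences of Gstm1, Gstm3 and Gstm4 were largest within slide 3. Each slide held mice of both diets (HF-Q and HF: 4 and 4, 3 and 4, 4 and 4). The difference for Gstm1 was 0.163, 0.13 and 0.796 within slides 1, 2 and 3, and for Gstm3 it was 0.123, -0.0066 and 0.624. For Gstm4 it was 0.25, 0.233 and 0.591. Whether the slides differ was not tested. With the slide as a block, Gstm1 stood at 0.375 ± 0.145 and Gstm4 at 0.364 ± 0.138.

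**Figure D3:**
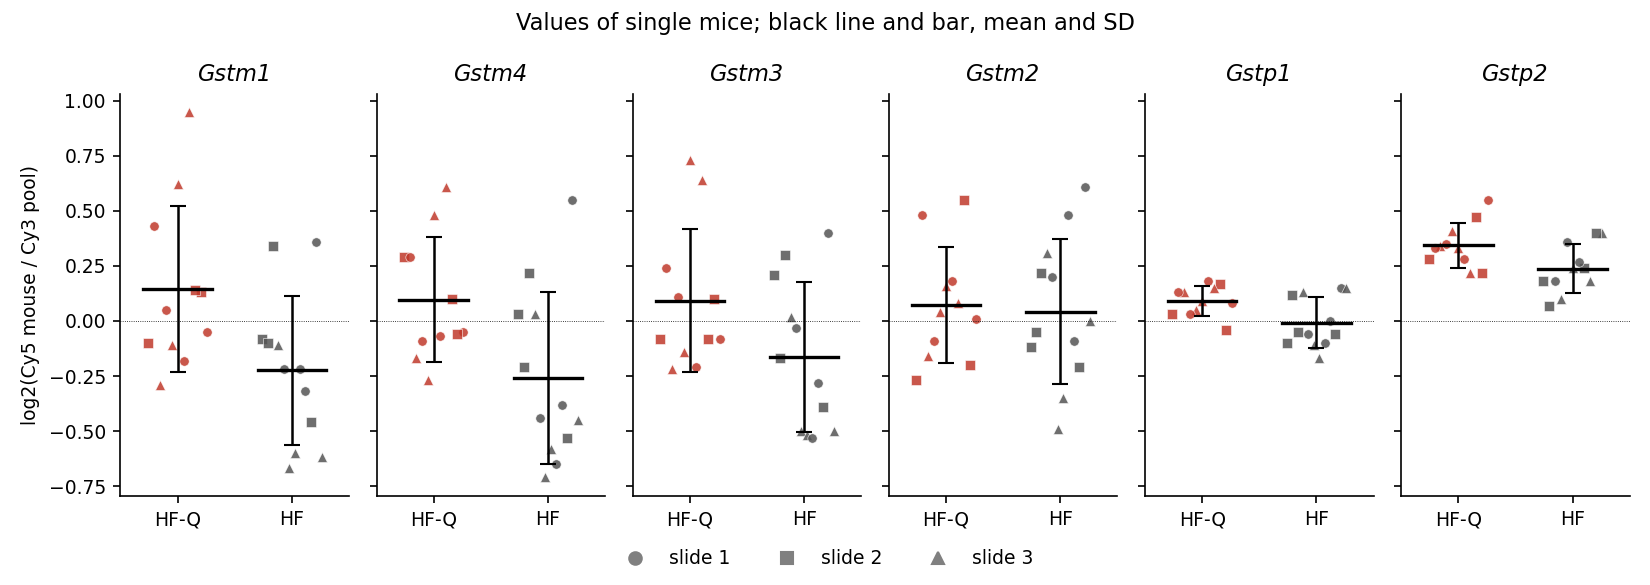
Log2 ratio over the pool of every mouse for 4 mu-class and 2 pi-class genes, HF-Q left and HF right, with the mean and SD in black and the slide as the symbol. The HF-Q mean lies above the HF mean in each panel, by 0.37 for Gstm1 and 0.029 for Gstm2, and the 2 highest Gstm1 and Gstm3 values are HF-Q mice of slide 3.

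Second probes of these genes gave the same sign. Gstm1 differed by 0.42 ± 0.147, Gstm3 by 0.383 ± 0.15 and Gstm4 by 0.147 ± 0.122 on theirs. The unadjusted p-values of limma over all kept probes were 0.0086, 0.0173 and 0.238. Whether Gstm3 and Gstm4 fell under 0.05 thus depended on the probe. Of the 16 measured transferases with several usable probes, 15 had the same sign on all of them, the exception being Gstm6 (-0.083 to 0.023 over 4 probes). The brighter Gstm1 probe is placed by the scanner file at chr5:117082490-117082549, on build mm9, whereas RefSeq places Gstm1 on chromosome 3, so what this probe reads was not settled here. The second one is placed at chr3:107815595-107815654. The first 30 bases of both are printed so that either can be traced.
Gstm1 brighter probe: tgttcctggtggaggagcctccccaggcct
Gstm1 second probe: atcgcaacacctatattttcaaagatggcc

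The pi-class genes Gstp1 and Gstp2 showed smaller differences, whose size depended on the scaling. Pi-class enzymes are abundant in epithelia and also bind stress kinases. Gstp1 had values of -0.041, 0.086 and 0.18 in HF-Q mice, against -0.17, -0.055 and 0.15 in HF mice, and the HF median was exceeded in 11 of 11 HF-Q mice. The difference was 0.098 ± 0.045 (1.07-fold, unadjusted p = 0.0388), and its SD between mice was low (0.097, at the 6.18th percentile of all genes).

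Gstp2 had values of 0.22, 0.33 and 0.545 in HF-Q mice, against 0.070, 0.235 and 0.40 in HF mice, 1 of which had no usable spot (n = 11). The difference was 0.106 ± 0.049 (1.08-fold, unadjusted p = 0.0404). Within the 3 slides it was 0.11, 0.0994 and 0.0959, and for Gstp1 0.107, 0.075 and 0.103, so these differences were alike across slides. With median centring in place of loess, where all genes together had a median of 0.049, the differences were 0.2 for Gstp1 and 0.235 for Gstp2. On the second probes the differences were 0.158 ± 0.048 for Gstp1 and 0.173 ± 0.061 for Gstp2.

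Upstream sequences of the 2 pi-class genes are shown because both hold a match to the same variant of the antioxidant response element. The 100 bases before the RefSeq gene start (GRCm38.p6, minus strand) are chr19:4037913-4038012 for Gstp1 and chr19:4042222-4042321 for Gstp2, with the match to TGAGNNNGC on the printed strand in capitals. Gstp1 holds another match, on the other strand at position -9, which is left in lower case; Gstp2 holds none there.
Gstp1: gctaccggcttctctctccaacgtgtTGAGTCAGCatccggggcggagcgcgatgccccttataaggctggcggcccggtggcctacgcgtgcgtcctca
Gstp2: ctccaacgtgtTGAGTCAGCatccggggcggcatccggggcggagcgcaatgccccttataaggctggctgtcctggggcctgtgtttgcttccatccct

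Both strands of the 250 bases before each gene start were searched, for 34 of the 37 measured transferases. The letters TGAGNNNGC occurred for 6 of the 34 (Gstm5, Gstp1, Gstp2, Gstt1, Gstz1 and Sult1c2), against 14.4% of all 32851 RefSeq windows of that length. The core TGACNNNGC occurred for 4 (Gsta3, Gstm5, Gstm7 and Mgst1), against 10.2% of windows. Neither was found in the windows of Gstm1, Gstm3 or Gstm4, and a match is a run of letters, not a known site.

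Of the remaining Gst genes, none reached an unadjusted p of 0.05. Among alpha-class enzymes, Gsta3, which detoxifies aflatoxin in mice, had values of -0.625, 0.043 and 1.28 in HF-Q mice and -0.62, -0.17 and 0.73 in HF mice (difference 0.15 ± 0.18, p = 0.411). Gsta4, which conjugates the lipid peroxidation product 4-hydroxynonenal, differed by 0.038 ± 0.124, and Gsta2 by -0.031 ± 0.147. The intervals of these 3 genes still allow changes of up to 1.44-fold higher (Gsta3) or 0.793-fold (Gsta2).

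Gstk1, a mitochondrial and peroxisomal enzyme, had values of -0.27, -0.127 and 0.163 in HF-Q mice and -0.466, -0.023 and 0.407 in HF mice (difference -0.071 ± 0.092). Gsto1, which acts as a thioltransferase, differed by 0.088 ± 0.074, and Gstt1, a theta-class enzyme that handles small halogenated molecules, by 0.042 ± 0.098. Gstz1, which isomerises maleylacetoacetate in tyrosine breakdown, was the Gst gene with the lowest difference (-0.075 ± 0.058, p = 0.209). All 4 intervals included 0.

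Of the membrane-bound enzymes, Mgst2, which can also make leukotriene C4, came closest. It had values of -0.22, 0.022 and 0.471 in HF-Q mice and -0.30, -0.104 and 0.144 in HF mice, and the HF median was exceeded in 10 of 11 HF-Q mice. The difference was 0.134 ± 0.066 (1.10-fold, p = 0.0536), just outside the unadjusted threshold. Mgst1, the abundant enzyme of the endoplasmic reticulum and outer mitochondrial membrane, differed by 0.072 ± 0.082 and Mgst3 by -0.026 ± 0.069.

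No glucuronosyltransferase reached an unadjusted p of 0.05 between diets, and part of the Ugt2b genes varied widely between mice. Ugt2b5, Ugt2b36, Ugt2b37 and Ugt2b38, members of the Ugt2b gene cluster on chromosome 5 whose enzymes glucuronidate steroids and other lipophilic compounds, had SDs within diet of 0.56, 0.46, 0.53 and 0.555. These lay at the 96.5th to 98th percentile of all genes. Gsta3, at an SD of 0.46, was the only other transferase in that range. The remaining Ugt genes varied less. Ugt2b34 and Ugt3a1 lay at percentiles 32 and 23.5, and Ugt2b35, Ugt2a3 and Ugt1a10 at 77.2, 79.1 and 84. Ugt2b38 had the largest difference of the family: values were -1.03, -0.108 and 0.755 in HF-Q mice and -0.762, 0.104 and 1.22 in HF mice, a difference of -0.18 ± 0.215 (0.883-fold, p = 0.412). Both groups covered nearly the same range.

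Ugt2b5 had values of -1.04, -0.057 and 0.846 in HF-Q mice and -0.736, 0.034 and 1.23 in HF mice (difference -0.156 ± 0.218). The interval of that difference ran from 0.658-fold to 1.23-fold. Ugt2b36 and Ugt2b37 differed by -0.114 ± 0.178 and -0.132 ± 0.207. Ugt2b35 stood on the other side of 0 (0.078 ± 0.091), Ugt2b34 at -0.0081 ± 0.059 and Ugt2a3, which glucuronidates bile acids, at 0.031 ± 0.094. Ugt1a10, an intestinal Ugt1a enzyme in humans, differed by 0.015 ± 0.103, and Ugt3a1 by 0.0070 ± 0.055.

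The 4 variable Ugt2b genes moved as 1 block. After the diet means were taken off, their pairwise correlations over the 23 mice were 0.965 to 0.990 (Pearson; adjusted permutation p = 0.00029 each, from the smallest p that 100000 permutations can give, 1e-05). Within diets the 6 correlations lay between 0.968 and 0.994, and Spearman's rho between 0.932 and 0.971. Without the 2 mice farthest from the median they were 0.953 to 0.985. Probes were aligned with each other, not with the transcripts of related genes. The Ugt2b5 and Ugt2b37 probes were alike, and the other 5 pairs matched at 38.2% to 46.7% of aligned bases. The Ugt2b36 probe is also assigned to Ugt2b37, although the probes of these genes matched at 43.8%. A low match of 2 probes therefore does not show that each reads 1 gene. The part of shared sequence in these values was not tested. Among the other transferases, Ugt2b35 came nearest to them (0.803 to 0.839), followed by Gsta3 (0.756 to 0.812) and Gstk1 (0.701 to 0.785), whose genes lie on other chromosomes. Ugt2a3 and Ugt2b34, from the same chromosome 5, had correlations of 0.579 to 0.639 and 0.493 to 0.610. Ugt3a1 had correlations of 0.0096 to 0.043 with them.

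The 100 bases before the gene start are printed for these 4 genes because they share a run of 22 bases, in capitals, the longest common to all 4 within 250 bases. Positions are GRCm38.p6, minus strand, from RefSeq: chr5:87140341-87140440 for Ugt2b5, chr5:87092556-87092655 for Ugt2b36, chr5:87254789-87254888 for Ugt2b37 and chr5:87424204-87424303 for Ugt2b38.
Ugt2b5: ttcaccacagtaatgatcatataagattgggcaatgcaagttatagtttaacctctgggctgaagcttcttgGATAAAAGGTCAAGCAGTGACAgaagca
Ugt2b36: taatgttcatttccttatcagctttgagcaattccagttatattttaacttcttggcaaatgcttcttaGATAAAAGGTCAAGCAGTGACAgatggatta
Ugt2b37: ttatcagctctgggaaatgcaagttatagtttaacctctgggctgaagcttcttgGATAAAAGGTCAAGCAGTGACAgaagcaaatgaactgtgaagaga
Ugt2b38: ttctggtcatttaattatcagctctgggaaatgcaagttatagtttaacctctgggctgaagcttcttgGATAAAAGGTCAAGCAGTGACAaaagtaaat

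The run starts at position -28 (Ugt2b5), -31 (Ugt2b36 and Ugt2b38) or -45 (Ugt2b37) from the gene start and occurred in 4 of 32851 RefSeq windows (0.0122%), those of these 4 genes, on either strand. The nearest match in Ugt2b35 had 6 differing bases, at position -31, and in Ugt2b34 and Ugt2a3 10 and 11. Over the whole 250 bases, aligned without gaps, Ugt2b37 and Ugt2b38 were 94.1% identical (222 of 236 aligned bases) and Ugt2b5 and Ugt2b36 38.5%. An inserted or missing base lowers such a value, so these sequences may be more alike than it shows. The run was chosen because the 4 genes share it, and nothing about its function was measured.

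A second block was formed by Gstm1, Gstm3 and Gstm4, with correlations of 0.918 (Gstm1 and Gstm3), 0.883 (Gstm3 and Gstm4) and 0.856 (Gstm1 and Gstm4), each at an adjusted p of 0.00029. Gstm2 had correlations of 0.555, 0.387 and 0.474 with Gstm1, Gstm3 and Gstm4. The upstream sequences of these 4 genes were 32% to 36.8% identical when aligned without gaps, with the same limit. Of all 666 pairs of measured transferases, 219 were positively and 3 negatively correlated at an adjusted p under 0.05, each at r of at least 0.493 or at most -0.506. Such values were found for 6.43% and 4.94% of the pairs of all genes with a value on every array. The median r was 0.353 for pairs of transferases and -0.0055 for all pairs. These pairs were chosen for testing after seeing the data.

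**Figure D4:**
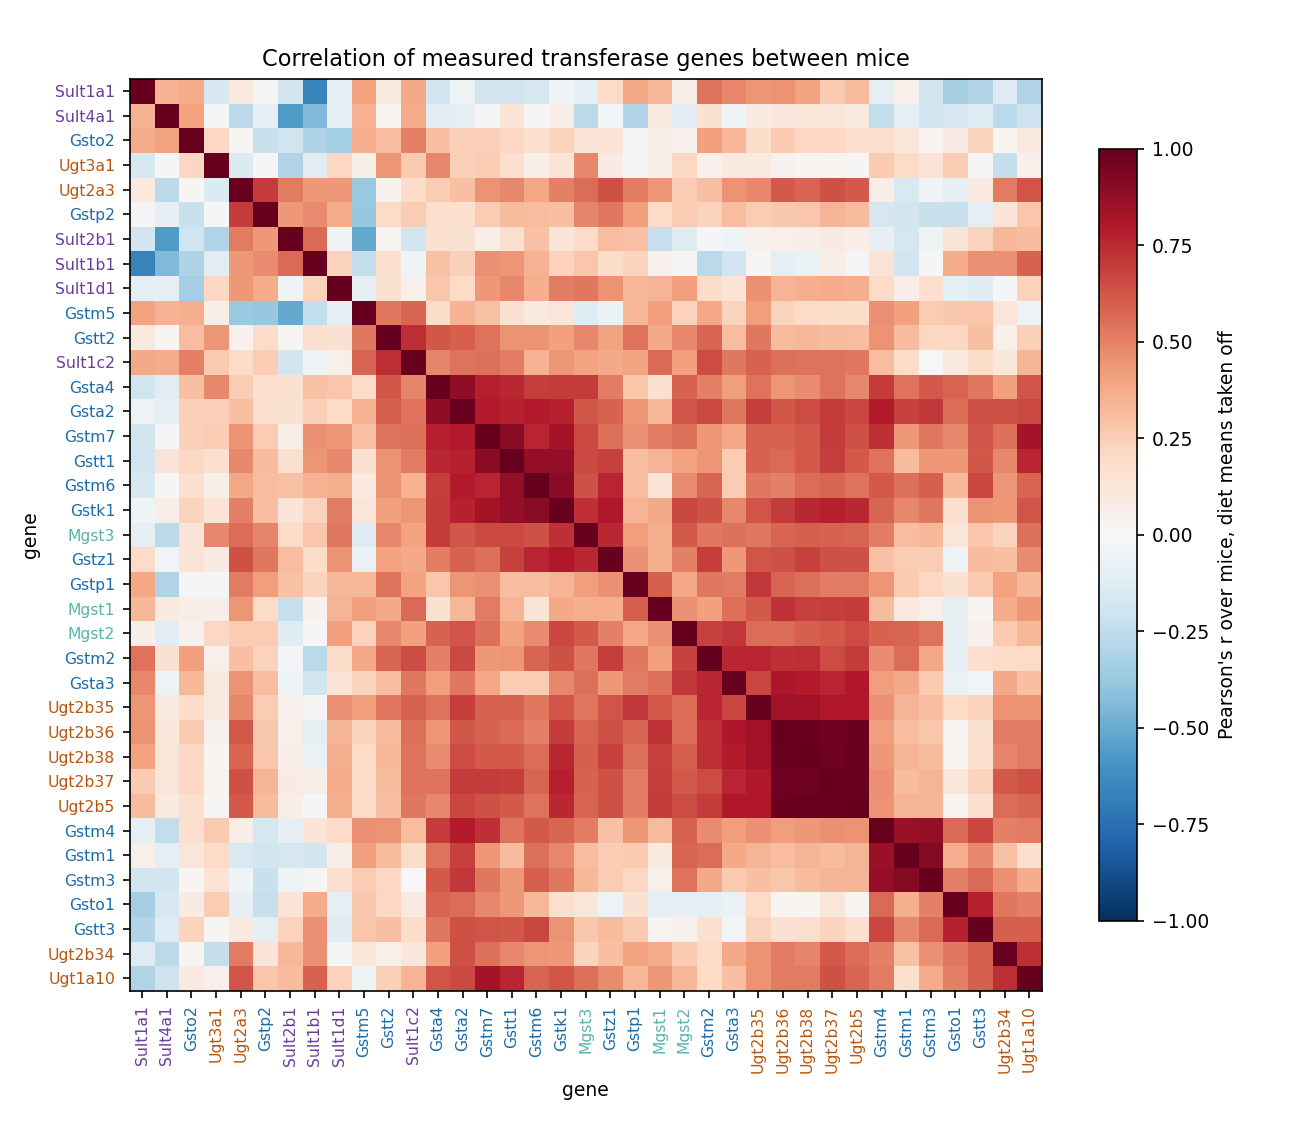
Pearson correlation over 23 mice (22 for pairs with Gstp2), with diet means taken off, for every pair of the 37 measured transferase genes (blue -1, red 1; axis labels coloured by family), ordered by average-linkage clustering. The 4 Ugt2b genes (0.965 to 0.990) and Gstm1, Gstm3 and Gstm4 (0.856 to 0.918) form dark squares, and Sult1a1 with Sult1b1 (-0.669) is the deepest blue.

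The sulfotransferases showed the smallest differences of the families. Sult1c2 had the largest one (0.080 ± 0.133), with values of -0.407, -0.029 and 0.69 in HF-Q mice and -0.738, -0.026 and 0.587 in HF mice. Sult1a1, which conjugates simple phenols and flavonoids, had values of -0.591, -0.035 and 0.294 in HF-Q mice and -0.391, -0.029 and 0.17 in HF mice (difference -0.078 ± 0.099, p = 0.439). Sult1b1, whose substrates include thyroid hormones, differed by -0.0045 ± 0.062, an interval of 0.912-fold to 1.09-fold. Sult1d1, which sulfates catecholamines in mice, differed by 0.031 ± 0.064, Sult2b1 by -0.044 ± 0.056 and Sult4a1 by -0.0063 ± 0.057.

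Sult1a1 and Sult1b1 ran opposite to each other between mice (r = -0.669, rho = -0.686, adjusted p = 0.0061 for r), and were related to the smooth muscle markers in opposite directions. The correlation with the smooth muscle score, tried after seeing the data, was 0.753 for Sult1a1 and -0.796 for Sult1b1 (adjusted p = 0.000925 each over 37 genes; rho 0.793 and -0.838). Within HF-Q mice the values were 0.896 and -0.859, within HF mice 0.521 and -0.753. Without the 2 farthest mice they were 0.811 and -0.794. With arrays centred on the median in place of loess, Sult1a1 had 0.82, whereas Sult1b1 had -0.196 and the pair of genes -0.0789. Sult4a1, measured on 1 of its 3 probes, was also positively correlated with that score (0.608). Sult2b1 (-0.573) and Ugt1a10 (-0.568) were negatively correlated with it, so 2 of 37 were positive and 3 negative. By rank correlation Sult4a1 and Sult2b1 did not pass (adjusted permutation p = 0.135 each), and with median centring Sult2b1 had -0.0043, Ugt1a10 -0.112 and Sult4a1 0.673. Of all genes, 10.8% had an r of at least 0.608 and 6.09% at most -0.568. In both diets the smooth muscle score lay below the diet mean in mice numbered 1 to 6 and above it from 7 on. An order tied to these numbers cannot be told apart from these correlations. The permutations treat the mice as exchangeable, which was not tested.

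Most Gst and Ugt genes followed markers of the proximal small intestine. A proximal score, the mean log2 ratio of 12 genes such as Gata4 and Cybrd1 that are highest in duodenum, and a distal score of 12 ileal genes such as Fgf15 and Slc10a2 were set against each measured transferase (74 relations, p-values adjusted over them). Fabp1, Apoa4 and Lct of the proximal list are also enterocyte markers, and correlations with an enterocyte score were not tested. The proximal score was between -0.171 and 0.135 in HF-Q mice and between -0.222 and 0.613 in HF mice. The distal score was between -0.092 and 0.135 in HF-Q mice and between -0.755 and 0.722 in HF mice, so HF mice were the more spread on both.

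With the proximal score, 21 of 37 transferases were positively correlated at an adjusted p under 0.05 and 0 negatively. They comprised 12 of 19 Gst, 1 of 3 Mgst, 8 of 9 Ugt and 0 of 6 Sult genes. All had an r of at least 0.474, a value that 10.3% of all genes reached. By rank correlation, 12 of the 21 also passed. The 3 highest were Gstt1 (r = 0.859, rho = 0.803, adjusted p = 0.000185 for r), Gstm6 (0.843, rho 0.87) and Gstk1 (0.79, rho 0.731). The 3 lowest were Sult1a1 (-0.037), Ugt3a1 (-0.0071) and Gstm5 (-0.0067).

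Within diets the correlations were higher in HF mice, whose scores were the more spread, and the difference was not tested. Over the 21 genes, r ran from -0.166 to 0.658 within HF-Q and from 0.613 to 0.92 within HF, and 18 kept their positive sign within HF-Q. For Gstt1 the values were 0.641 within HF-Q and 0.901 within HF. Within the 3 slides Gstt1 had r of 0.914, 0.977 and 0.833, and Gstm6 0.885, 0.966 and 0.769. Without the 2 mice farthest from the median of the score, Gstt1 stood at 0.774, Gstm6 at 0.757 and Gstk1 at 0.688, and the 21 genes ran from 0.195 to 0.774. With median centring all 21 stayed positive (0.67 to 0.921).

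**Figure D5:**
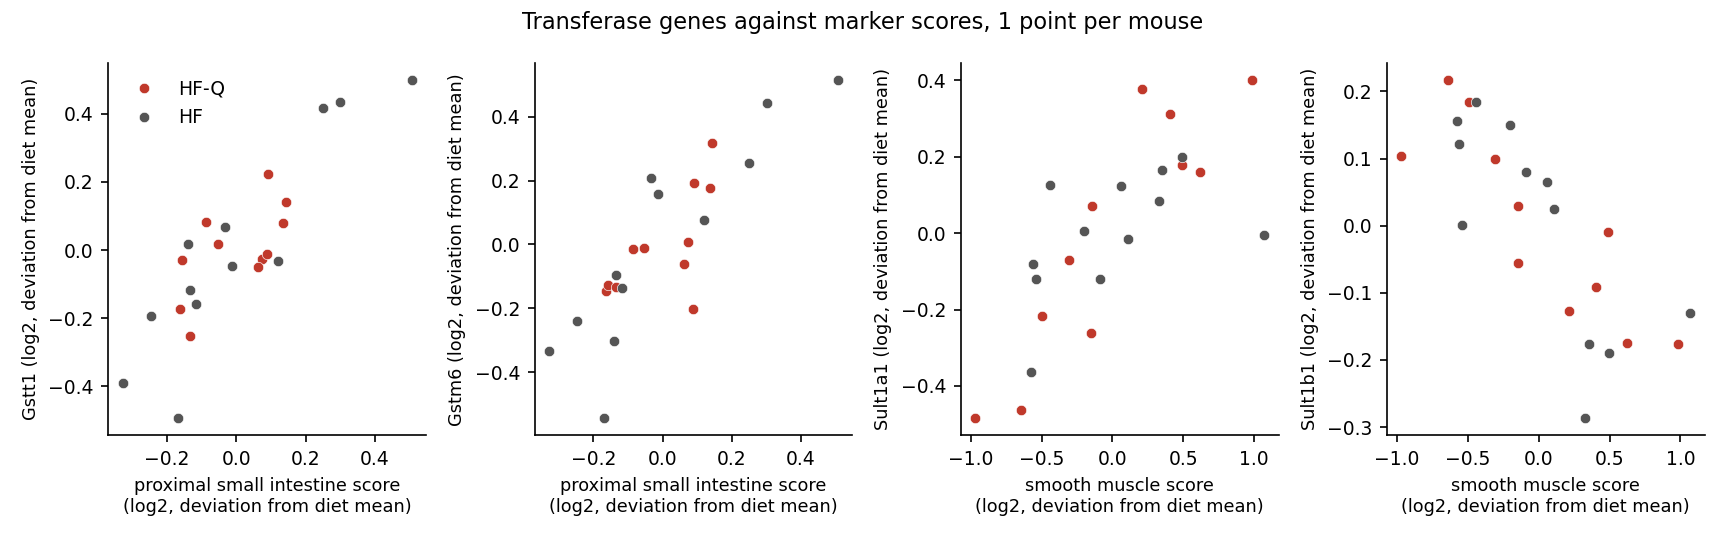
Deviation of 4 transferase genes from their diet mean (log2) against the deviation of a marker score, 1 point per mouse, HF-Q in red and HF in grey. Gstt1 and Gstm6 rise with the proximal score (r = 0.859 and 0.843), Sult1a1 rises with the smooth muscle score (0.753) and Sult1b1 falls with it (-0.796).

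With the distal score, 11 transferases were negatively correlated and 0 positively, each at an r of at most -0.476, which 2.68% of all genes reached. The 3 lowest were Gstm6 (-0.774), Gstt3 (-0.632) and Gstk1 (-0.629), and the 3 highest were Gsto2 (-0.105), Sult4a1 (0.022) and Ugt3a1 (0.331). They were less even than the proximal ones. By rank correlation 2 of the 11 passed, within HF-Q their r ran from -0.464 to 0.641, and without the 2 farthest mice from -0.591 to -0.04. Gstm6 had -0.163 within HF-Q, -0.861 within HF and -0.591 without those 2 mice, and -0.324 with median centring.

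The proximal and distal marker scores and diet were put into 1 fit after seeing the data. With both scores as covariates, 10 transferases were higher in HF-Q at an unadjusted p under 0.05 and 0 lower, and 0 passed the adjusted threshold. In that fit 2.51% of all genes were higher at an unadjusted p under 0.05. The 10 were Gstm1 (0.419 ± 0.138), Gstm3 (0.344 ± 0.123), Gstm4 (0.438 ± 0.124), Gstm7 (0.191 ± 0.077), Gstt1 (0.159 ± 0.059), Gstt3, Gsto1, Gstp1, Gstp2 and Mgst2. The scores come from the same RNA, taken after the diet, and are no measure of position as such. The mean proximal score was lower in HF-Q (difference -0.116), and all 10 genes had a positive r with it. Such a covariate can by itself raise their differences (Gstt1 stood at 0.042 without the scores). The parts of the scores and of diet in the 10 cannot be told apart and were not tested. With the pancreatic acinar and smooth muscle scores instead, Gstm1 (0.366 ± 0.152) and Gstm4 (0.354 ± 0.14) stayed at an unadjusted p under 0.05, against 6.15% of all genes higher in that fit.

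Genes that feed or follow these enzymes were counted by lists. For glutathione supply, 8 of 12 measured genes were higher in HF-Q and 4 lower (median 0.020). Of all genes, 4.53% had an unadjusted p under 0.05 in either direction, and of these 12 it was 1. This was Gclc, the catalytic subunit of the rate-limiting ligase of glutathione synthesis, with values of -0.082, 0.138 and 0.462 in HF-Q mice and -0.245, -0.066 and 0.327 in HF mice (0.168 ± 0.072, p = 0.0279). Its difference was -0.135 within slide 1, 0.445 within slide 2 and 0.22 within slide 3. Of the 6 genes for breakdown of glutathione conjugates, 2 were higher and 4 lower, led by the aminopeptidase Anpep (0.118 ± 0.124).

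For UDP-glucuronic acid supply, 2 of 5 genes were higher, and the endoplasmic reticulum transporter of UDP-sugars Slc35d1 had the largest difference (-0.118 ± 0.109). For active sulfate (PAPS) supply, 7 of 10 measured genes were higher and 3 lower (median 0.035), led by the sulfite oxidase Suox (0.275 ± 0.186, p = 0.152). Among 5 genes that remove conjugates, 1 was higher, and lactase (Lct), which also cleaves flavonoid glycosides, stood at -0.309 ± 0.18. Efflux pumps were 3 higher and 4 lower of 7, and the basolateral pump Abcc3 had the largest difference (0.169 ± 0.12). Of 3 measured genes for other conjugations, 2 were higher, the largest difference being that of the thiopurine methyltransferase Tpmt (0.076 ± 0.056).

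Among 15 regulators, 5 were higher and 10 lower. Ahr, the aryl hydrocarbon receptor that induces Ugt1a and other genes, had values of -0.321, -0.131 and 0.181 in HF-Q mice and -0.162, 0.064 and 0.425 in HF mice, a difference of -0.146 ± 0.068 (p = 0.0401). Within slides 1, 2 and 3 it was -0.228, -0.268 and 0.023. Ahr was the only 1 of the 15 at an unadjusted p under 0.05, against 4.53% of all genes. The fatty acid sensor Ppara had the largest difference of that list, -0.247 ± 0.128 (p = 0.0652). No gene of any of these lists passed the adjusted threshold.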

How the data were processed

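Arrays of 23 mice were analysed. The scans were quantified in Agilent's Feature Extraction (version 10.7.3.1, according to the submitters' processing notes), and, per the file headers, the deposited spot and background columns are intensity values on a linear scale, not normalized between arrays. The same deposited files hold a log10 ratio of Cy5 over Cy3 made by that software, and a further deposited table holds the authors' log2 values. The column of HF replicate 1 in that table has a median of 9.11, and the scaling of the authors' values is unstated in the labels. The log10 ratio and the authors' values both served as alternatives. Deviations in the authors' log2 table correlated with those computed here at 0.881 to 0.966 across 27551 probes, which are not independent replicates.

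In R 4.3.3 (limma 3.58.1), spot background was removed by normexp (offset 50), arrays were normalized by loess with control spots at weight 0, and outlier spots were set to missing. Probes whose Cy5 the software marked as above background in 50% or more of 1 diet's arrays were kept, which left 29249 of 55681 probes; a gene's brightest kept probe was used. The number of arrays limits the precision. The diets were contrasted (HF-Q minus HF) with lmFit and eBayes, two-sided, with Benjamini-Hochberg adjustment over all 21477 genes; the script was tested on simulated data. Correlations across mice used deviations from the diet means and 100000 two-sided permutations (numpy 2.4.6, scipy 1.17.1). Gene names follow the scanner files and a RefSeq table of GRCm38.p6. Upstream sequences were available for 34 of 37 measured transferases.

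The members, lists and tests were chosen with earlier results of these data known. Transferases named with values are those at an unadjusted p under 0.05, the largest difference of each family, a list of 26 well-known members, the 4 with the largest SD, and the 3 highest and lowest correlations with each score; in the other gene lists, those at an unadjusted p under 0.05 or with the largest difference. Gstm2, Gstm7 and Ugt1a10 were added after their values were seen. Nothing in the labels links mice of the 2 diets, and nothing says that cages or litters were separate, so p-values measure the spread between these mice.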

Additional observations from a re-analysis of the deposited data

How the results depend on the processing

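No transferase and no other gene passed an adjusted p of 0.05 under any alternative run: median centring, the scanner's log10 ratio, the authors' log2 table, no filter, a filter of every array, the mean of a gene's probes, slide as a block, the replicate block, array weights, Cy5 alone, each slide by itself, each mouse left out, and 2 sets of marker scores as covariates (chosen after seeing the data). The number of transferases higher in HF-Q at an unadjusted p under 0.05, 4 in the report, was 2 with slide as a block, 1 with the replicate block, 0 within slide 1, 0 within slide 2, 2 with pancreatic acinar and smooth muscle scores and 10 with proximal and distal scores. It ranged from 2 to 6 when single mice were left out, and none was lower under any of these. Gstm1 kept an unadjusted p under 0.05 without any single mouse (23 of 23; 0.29 to 0.424), as did Gstm4 (23 of 23; 0.306 to 0.43), while Gstp1 did so in 11 of 23 and Gstp2 in 13 of 23. Those runs used each gene's brightest probe. With all mice, the second Gstm4 probe gave 0.147 ± 0.122 (limma, unadjusted p = 0.238). The median of the Mgst genes was -0.106 within slide 3. The medians of Ugt and Sult genes lay near 0 and changed sign with median centring (0.014 and 0.08), where all genes together had a median of 0.049. Of the 11 correlations with the distal score, 9 kept their sign with median centring and 8 within HF-Q: the sign changed for Gstt3 (0.145) and Gstp1 (0.16) with median centring, and for Gstk1 (0.316), Gstm7 (0.641) and Gstt1 (0.036) within HF-Q. Mice of the same number in both diets correlated at -0.345 to 0.391 over all genes. Of the 11 pairs, 5 lay above 0.1, and 1 of 11 HF-Q mice was closest to its own number. Such values cannot decide whether the numbers mark an order shared by the diets. For the smooth muscle score, numbers 1 to 6 lay below the diet mean and those from 7 on above it, in both diets. The replicate block is therefore given as 1 of the alternatives. Authors' values were missing for 2 of the 37 genes. Dim genes (16 of 53) were not tested, and the intervals of Ugt2b5 and Ugt2b38 reach past 1.5-fold, so changes of that size cannot be told from none with these numbers of mice.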
